A study of Mus musculus with 12 samples.

Results

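The genes described here are subunits, feedback inhibitors and target genes of NF-kappaB, measured in mouse embryonic fibroblasts (MEFs, connective tissue cells cultured from embryos) that were TAp73+/+ or TAp73-/-. They were listed by symbol as Rela, Relb, Nfkb1, Nfkb2, Nfkbia, Nfkbie, Nfkbiz, Tnfaip3, Icam1 and Ptgs2, and every probe annotated to them was taken. Of these 10 genes, 9 had a probe, 12 probes in all among 45281 on the array, and Nfkb1 was not analysed here. Of the 12 probes, 10 were detected on both arrays of at least 1 group, so each of the 9 genes was tested, among 10873 genes in all. Trp73 encodes p73, a relative of p53, and TAp73 names its forms with a transactivation domain.

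Cells of both genotypes grew in medium with serum. They were either left untreated at the usual oxygen level, which is called 0 h, or moved to 1% oxygen (hypoxia) for 4 or 8 h. This gave 6 groups, TAp73+/+ untreated, TAp73+/+ at 4 h, TAp73+/+ at 8 h, TAp73-/- untreated, TAp73-/- at 4 h and TAp73-/- at 8 h, with 2 arrays each and 12 arrays in all. No group kept untreated for 4 or 8 h was analysed here, so time in culture is not controlled for separately. The labels do not say whether the 2 arrays of a group came from separate cultures, so p-values measure the spread between arrays, which may be technical. They also do not say how many MEF lines stand for a genotype, so genotype and line cannot be told apart.

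NF-kappaB is a family of dimeric transcription factors. In resting cells the dimer of p65 (encoded by Rela) and p50 (encoded by Nfkb1) is held in the cytoplasm by IkB proteins, and signals from cytokine receptors lead to the destruction of IkB and the entry of the dimer into the nucleus. Among the genes it switches on are its own inhibitors, IkBalpha (Nfkbia), IkBepsilon (Nfkbie) and the ubiquitin-editing enzyme A20 (Tnfaip3), which makes the response self-limiting. A slower, alternative branch turns p100 (Nfkb2) into p52, which pairs with RelB. Low oxygen is known to activate NF-kappaB signalling in several cell types through the oxygen-sensing hydroxylases.

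The sequences before the start sites are shown for 4 genes that the results turn on, because 3 of them carry matches to the kappaB consensus, the site NF-kappaB dimers bind, and the Ptgs2 window carries none. Each is the 250 bases before a RefSeq transcription start (GRCm38.p6), written 5′ to 3′ on the strand of the gene, with matches to the kappaB consensus on either strand in capitals.
Nfkbia, chr12:55492648-55492897, minus strand: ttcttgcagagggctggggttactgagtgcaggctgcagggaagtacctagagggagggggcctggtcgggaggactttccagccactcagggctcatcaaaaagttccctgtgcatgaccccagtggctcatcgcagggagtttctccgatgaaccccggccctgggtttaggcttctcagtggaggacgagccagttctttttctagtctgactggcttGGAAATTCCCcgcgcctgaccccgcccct
Tnfaip3, chr10:19015411-19015660, minus strand: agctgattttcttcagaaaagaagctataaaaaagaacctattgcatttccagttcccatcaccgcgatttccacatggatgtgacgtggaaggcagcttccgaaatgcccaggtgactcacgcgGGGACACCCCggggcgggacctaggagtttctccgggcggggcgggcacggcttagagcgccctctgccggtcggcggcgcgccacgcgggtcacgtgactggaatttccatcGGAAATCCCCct
Nfkb2, chr19:46304487-46304736, plus strand: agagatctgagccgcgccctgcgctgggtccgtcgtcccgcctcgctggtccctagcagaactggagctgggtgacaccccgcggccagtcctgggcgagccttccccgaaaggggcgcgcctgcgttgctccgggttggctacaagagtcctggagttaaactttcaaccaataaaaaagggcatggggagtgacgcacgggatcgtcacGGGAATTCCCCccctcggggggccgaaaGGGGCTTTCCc
Ptgs2, chr1:150099781-150100030, plus strand: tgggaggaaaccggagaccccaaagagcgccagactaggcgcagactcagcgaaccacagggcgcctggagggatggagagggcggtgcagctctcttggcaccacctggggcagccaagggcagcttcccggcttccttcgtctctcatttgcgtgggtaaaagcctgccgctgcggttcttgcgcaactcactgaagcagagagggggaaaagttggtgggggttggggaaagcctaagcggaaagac

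The Nfkbia window held 1 kappaB match, at bases -29 to -20 counted from the start. The Tnfaip3 window held matches at 2 positions, -125 to -116 and -12 to -3. The Nfkb2 window held matches at 3 positions, of which -39 to -30 and -38 to -29 overlap each other and the last lies at -11 to -2. Among all 32851 windows of this length, 7.25% held a match. Windows were given for 7 of the listed genes, 10 windows in all, and a match also stood in the Nfkbie window (chr17:45555450-45555699) and in both other Nfkb2 windows, but not in those of Icam1, Rela and Ptgs2 or in the window of an inner Tnfaip3 start. Hypoxia-inducible factors bind the core of the hypoxia response element (ACGTG or GCGTG, either strand). This core stood at 5 positions of the Tnfaip3 window shown, at 1 of the Ptgs2 window and at none of the Nfkbia and Nfkb2 windows shown. Of the 5, those at -33 to -29 and -32 to -28 overlap each other on opposite strands. Of the windows not shown, both other Nfkb2 windows, the Nfkbie window and the inner Tnfaip3 window held the core at 2 positions each. The Icam1 window held it at 1 position and the Rela window at 0. None of these cores overlapped a kappaB match, and 38.6% of all windows held such a core. A match describes the letters and not a site in use.

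All values below are log2 normalised signals, and differences are log2 differences ± the standard error (SE) of a limma model over all 12 arrays. A gene was called changed at a Benjamini-Hochberg adjusted p below 0.05 over all 10873 genes. Each array detected 42.8% to 44.5% of its probes, and arrays of a group correlated at r = 0.991 to 0.997. The hypoxia genes Vegfa and Adm rose in both genotypes, Vegfa by 1.74 ± 0.09 at 4 h in TAp73+/+ and by 1.57 ± 0.09 in TAp73-/- (limma, adjusted p = 1.02e-06 and 3.06e-06). The Trp73 probe was not detected on any TAp73+/+ array and was detected on 1 of 2 untreated and on all hypoxic TAp73-/- arrays, with group means of 5.02, 5.86 and 6.22. Its place relative to the deleted part is not given in the sources used here, so it does not check the labels. Of 10 fibroblast markers, 3 were detected on all arrays (Pdgfra, Thy1, Vim) and 5 on none (Col1a1, Col1a2, Dcn, Lum, Postn). Of 6 epithelial markers, 4 were detected on all arrays (Cdh1, Krt18, Krt19, Cldn3), and of 8 macrophage and leukocyte markers 1 was (Cd14) while Ptprc, Adgre1, Itgam and Fcgr1 were on none. A signed score of disagreement between probes of the same gene was computed, and the untreated TAp73+/+ arrays stood at its positive end, at 0.590 and 0.386. Its sign is arbitrary and was set to make untreated TAp73+/+ array 1 positive. A score far below 0 therefore also marks disagreement, in the opposite direction. The other 10 arrays read -0.365 to 0.302, with 0.193 and 0.302 in TAp73+/+ cells at 8 h. TAp73+/+ arrays at 4 h read -0.076 and -0.104, and TAp73-/- arrays -0.365 to -0.093. This score was also put into the model as a covariate, and its effect is given beside the results it changed. Because the score followed genotype and time in part, it overlaps with the groups compared. Why a call was lost with it was not tested.

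Tnfaip3 was the member with the largest change at 1% oxygen in all 4 comparisons with untreated cells, and it rose in each of them. In TAp73+/+ cells its arrays read 5.41 and 5.63 untreated, 6.85 and 6.94 after 4 h, then 7.25 and 7.04 after 8 h. In TAp73-/- cells they read 6.35 and 6.24 untreated, 7.28 and 7.68 after 4 h, then 7.35 and 7.43 after 8 h. Every hypoxic array therefore lay above every untreated array of either genotype, and the untreated TAp73+/+ arrays were the lowest of all. The rise in TAp73+/+ cells was 1.38 ± 0.14 at 4 h, 2.60-fold, and 1.63 ± 0.14 at 8 h, 3.09-fold (limma, adjusted p = 0.000127 and 2.53e-05). The rise in TAp73-/- cells was 1.18 ± 0.14 at 4 h, 2.27-fold, and 1.09 ± 0.14 at 8 h, 2.14-fold (adjusted p = 0.000738 and 0.000492). The 4 h and 8 h comparisons of a genotype share their untreated arrays. All 4 calls held when any of the 12 arrays was left out. With the probe disagreement score as a covariate, the 8 h rises stayed called, while the 4 h values became 0.93 in TAp73+/+ (adjusted p = 0.568) and 0.99 in TAp73-/- (adjusted p = 0.103). In cultures measured as a whole, more cells with the transcript and more transcript per cell cannot be told apart, here and below.

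**Figure D1:**
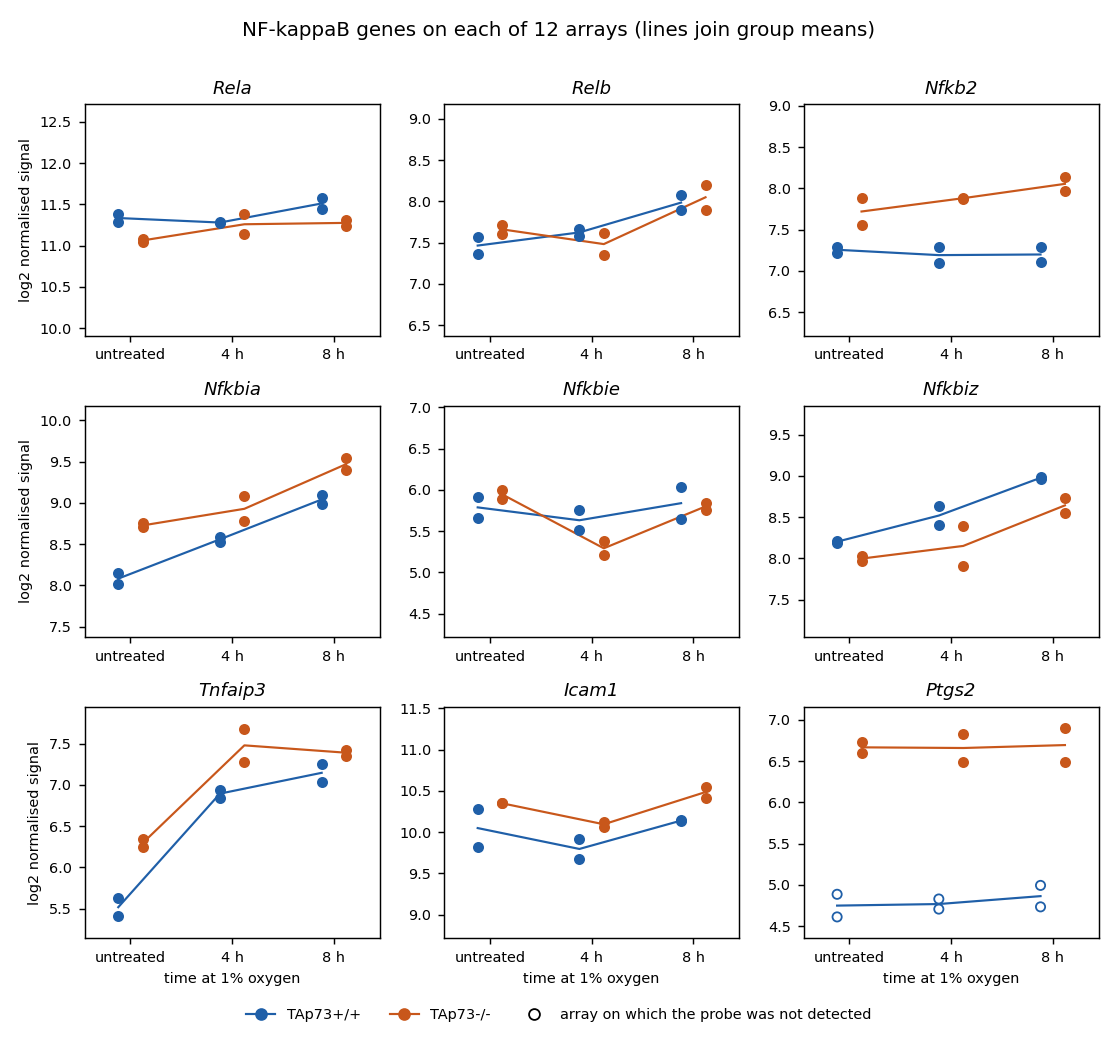
Log2 normalised signal of the probe that stands for each NF-kappaB gene (vertical axis, the same length in every panel) against time at 1% oxygen, with 1 point per array, 2 arrays per group, and lines through the group means. For Ptgs2 all 6 TAp73-/- arrays lie above the 6 TAp73+/+ arrays, where the probe was not detected (open points), and Tnfaip3 is lowest on the untreated TAp73+/+ arrays, at 5.41 and 5.63.

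Nfkbia, the gene of IkBalpha, was the other inhibitor that rose in both genotypes. On its brighter probe, TAp73+/+ arrays read 8.01 and 8.15 untreated, 8.53 and 8.59 after 4 h, then 9.09 and 8.99 after 8 h. TAp73-/- arrays read 8.70 and 8.75 untreated, 9.08 and 8.78 after 4 h, then 9.54 and 9.40 after 8 h. In each genotype the arrays of the 3 times did not overlap, in the order untreated, 4 h, 8 h. The rise in TAp73+/+ cells was 0.48 ± 0.12 at 4 h and 0.96 ± 0.12 at 8 h (limma, adjusted p = 0.0127 and 0.000334). In TAp73-/- cells it was 0.74 ± 0.12 at 8 h (adjusted p = 0.00159), and the 4 h difference of 0.20 ± 0.12 was not called (95% interval -0.06 to 0.46, adjusted p = 0.33). The 4 h call in TAp73+/+ cells was lost without untreated array 1 (0.41, adjusted p = 0.0769), without 4 h array 1 (0.51, 0.0555) and without 4 h array 2 (0.45, 0.0825), and with the probe score as covariate the difference was -0.0017 (0.999).

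The dimmer Nfkbia probe gave another picture of hypoxia. Its TAp73+/+ arrays read 6.62 and 6.49 untreated, 6.23 and 6.40 after 4 h, then 7.15 and 6.76 after 8 h, so the 4 h arrays lay below the untreated ones. Its TAp73-/- arrays read 7.80 and 7.14 untreated, 7.51 and 7.54 after 4 h, then 7.70 and 7.80 after 8 h, with the untreated arrays on both sides of the 4 h arrays. In a fit of every probe, none of its 4 hypoxia differences was called, at -0.24, 0.40, 0.06 and 0.28, each ± 0.20 (TAp73+/+ at 4 h and 8 h, TAp73-/- at 4 h and 8 h, adjusted p = 0.378, 0.177, 0.897 and 0.379). With the mean of both probes in place of the brighter probe, Nfkbia was not called at 4 h in TAp73+/+ cells (0.12, adjusted p = 0.499).

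**Figure D2:**
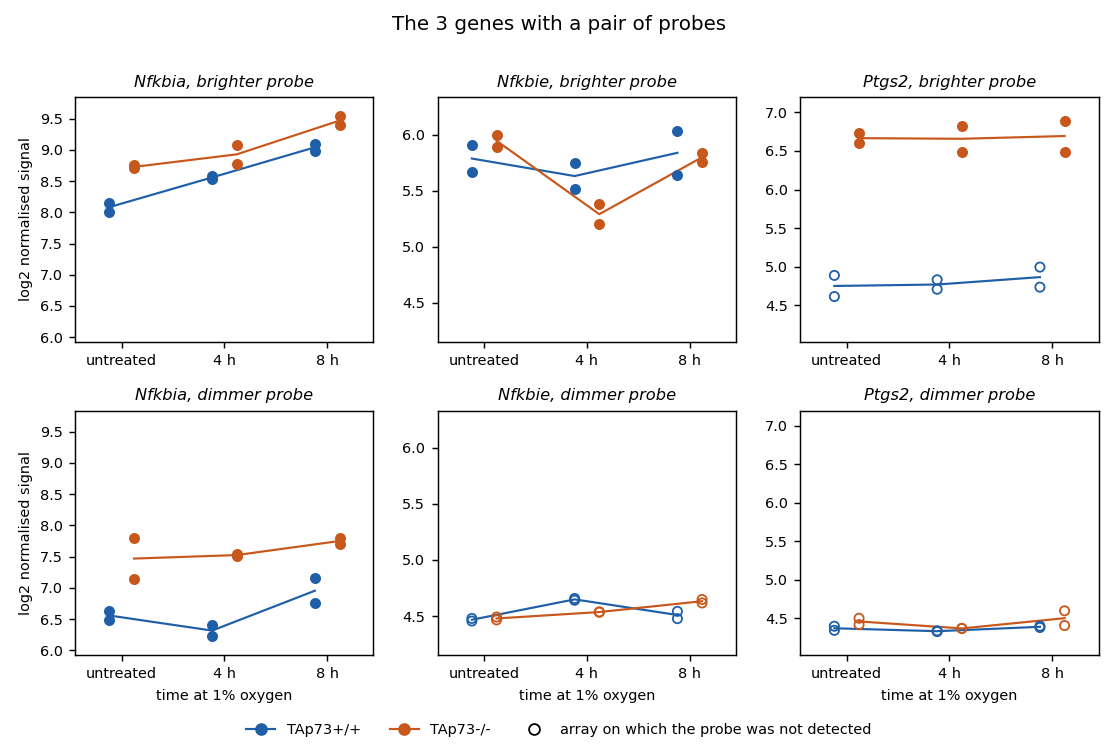
Log2 normalised signal of the brighter (top) and dimmer (bottom) probe of Nfkbia, Nfkbie and Ptgs2 on each array against time at 1% oxygen, with lines through group means and open points for arrays where the probe was not detected. The dimmer Nfkbia probe separates the genotypes at every time, and the dimmer Nfkbie and Ptgs2 probes lie between 4.33 and 4.66 and were detected on no array.

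Nfkbiz encodes IkBzeta, a nuclear IkB protein that acts as a cofactor at a subset of NF-kappaB targets. Its TAp73+/+ arrays read 8.21 and 8.19 untreated, 8.40 and 8.63 after 4 h, then 8.97 and 8.99 after 8 h, and its TAp73-/- arrays read 8.03 and 7.97, 7.91 and 8.39, and 8.74 and 8.55. Both 8 h arrays lay above all other arrays of their genotype. The gene rose at 8 h by 0.77 ± 0.15 in TAp73+/+ and by 0.64 ± 0.15 in TAp73-/- cells (limma, adjusted p = 0.00425 and 0.0112). At 4 h the differences were 0.32 ± 0.15 and 0.15 ± 0.15 (adjusted p = 0.135 and 0.571). The TAp73-/- call at 8 h was lost without untreated array 1 (0.67, adjusted p = 0.0531), untreated array 2 (0.62, 0.0604) or 8 h array 1 (0.55, 0.0846), and the TAp73+/+ call with the probe score as covariate (0.69, 0.111).

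Nfkbie, the gene of IkBepsilon, went the other way in 1 comparison. Its TAp73-/- arrays read 5.89 and 6.0 untreated, 5.20 and 5.38 after 4 h, then 5.76 and 5.84 after 8 h, and the 4 h arrays were the lowest of all 12. It fell by 0.65 ± 0.15 at 4 h in TAp73-/- cells (limma, adjusted p = 0.0255), and at 8 h the difference was -0.15 ± 0.15 (0.519). In TAp73+/+ cells its arrays spanned 5.51 to 6.03 with overlap between the times, and the differences were -0.16 and 0.05, each ± 0.15 (adjusted p = 0.459 and 0.83). The 4 h call was lost without any single one of the TAp73-/- untreated or 4 h arrays (-0.57 to -0.74, adjusted p 0.0534 to 0.148), on the authors' processed values (-0.29, 0.0534) and with the probe score as covariate (-0.68, 0.341).

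Among the subunits, Relb was the member called at 1% oxygen. RelB is the partner of p52 in the alternative branch. Its TAp73+/+ arrays read 7.57 and 7.36 untreated, 7.58 and 7.67 after 4 h, then 8.07 and 7.90 after 8 h, and its TAp73-/- arrays read 7.61 and 7.72, 7.61 and 7.35, and 8.20 and 7.90. The 8 h arrays of both genotypes were the 4 highest of the 12. The rise at 8 h was 0.52 ± 0.14 in TAp73+/+ cells (limma, adjusted p = 0.0188), and the difference in TAp73-/- cells was 0.39 ± 0.14 (0.0656). The TAp73+/+ call was lost without untreated array 2 (0.42, adjusted p = 0.1), without 8 h array 1 (0.43, 0.132) and with the probe score as covariate (0.44, 0.245).

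Rela and Nfkb2 were not called in any comparison with untreated cells. Rela, the gene of p65, ranged from 11.04 to 11.58 over the 12 arrays, the narrowest span of group means among the members (0.45). Its differences from untreated cells were -0.05 and 0.18 in TAp73+/+ and 0.20 and 0.21 in TAp73-/- cells at 4 and 8 h, each ± 0.11. Nfkb2, the gene of p100, differed by -0.06 at both times in TAp73+/+ cells, and by 0.16 at 4 h and 0.33 at 8 h in TAp73-/- cells, each ± 0.13 (limma, adjusted p = 0.491 and 0.0929 for the last 2).

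Neither of the targets on the list was called for hypoxia. Icam1, an adhesion molecule that binds leukocyte integrins, ranged from 9.68 to 10.55, and its differences were -0.25 at 4 h in each genotype and 0.09 and 0.14 at 8 h, each ± 0.14. Its untreated TAp73+/+ arrays were apart at 10.28 and 9.82, and without the second of them the 4 h difference in TAp73+/+ cells was -0.48 (limma, adjusted p = 0.0203). Ptgs2, the inducible cyclooxygenase that makes the precursor of prostaglandins, differed in TAp73-/- cells by -0.01 at 4 h and 0.03 at 8 h, each ± 0.17 (adjusted p = 0.982 and 0.929). The 95% intervals of these 2 differences were -0.38 to 0.36 and -0.34 to 0.40. In TAp73+/+ cells Ptgs2 was not well above background at any time.

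By count, the members higher than in untreated TAp73+/+ cells were 2 of 9 at 4 h (Nfkbia, Tnfaip3) and 4 of 9 at 8 h (Nfkbia, Nfkbiz, Tnfaip3, Relb), and none was lower. Of all genes 12% were called higher and 16% lower at 4 h, and 11.6% higher and 12.3% lower at 8 h. In TAp73-/- cells 1 member was higher (Tnfaip3) and 1 lower (Nfkbie) at 4 h, and 3 were higher (Nfkbia, Nfkbiz, Tnfaip3) and none lower at 8 h. The shares of all genes were 3.13% higher and 3.84% lower at 4 h, and 10.6% higher and 10.2% lower at 8 h. The median difference of the members was 0.02 and 0.18 in TAp73+/+ and 0.15 and 0.33 in TAp73-/- cells at 4 and 8 h, against -0.06, -0.02, -0.03 and 0.00 over all genes. With counts of 0 to 4 among 9 genes, these shares describe the members only. The summed signal of the 6 epithelial markers also moved with time, from 5328 to 5366 on untreated TAp73+/+ arrays to 8755 to 8837 at 8 h, and from 7977 to 8618 to 11644 to 12019 in TAp73-/- cells. Krt19 (mean 9.38 untreated and 11.56 at 8 h in TAp73+/+ cells) and Krt18 (12.03 and 12.38) were the epithelial markers called higher at 8 h in TAp73+/+ cells, 2 of the 5 tested, while Cdh1 read 8.53 and 8.30, Krt8 read 5.43 and 5.20, and Epcam was detected on no array. The summed signal of the 10 fibroblast markers was 2543 to 3534 on the untreated TAp73+/+ arrays, below the range of 5289 to 8697 on all other arrays. The brightest of them, Vim, read 11.43 untreated and 12.61 at 4 h in TAp73+/+ cells on this probe, and its other probe had the opposite sign. Of the 4 fibroblast markers tested, Vim was called higher in that comparison and Pdgfra and Pdgfrb lower (-0.74 and -0.76), with a median of -0.47. The part of these markers in the results was not tested.

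**Figure D3:**
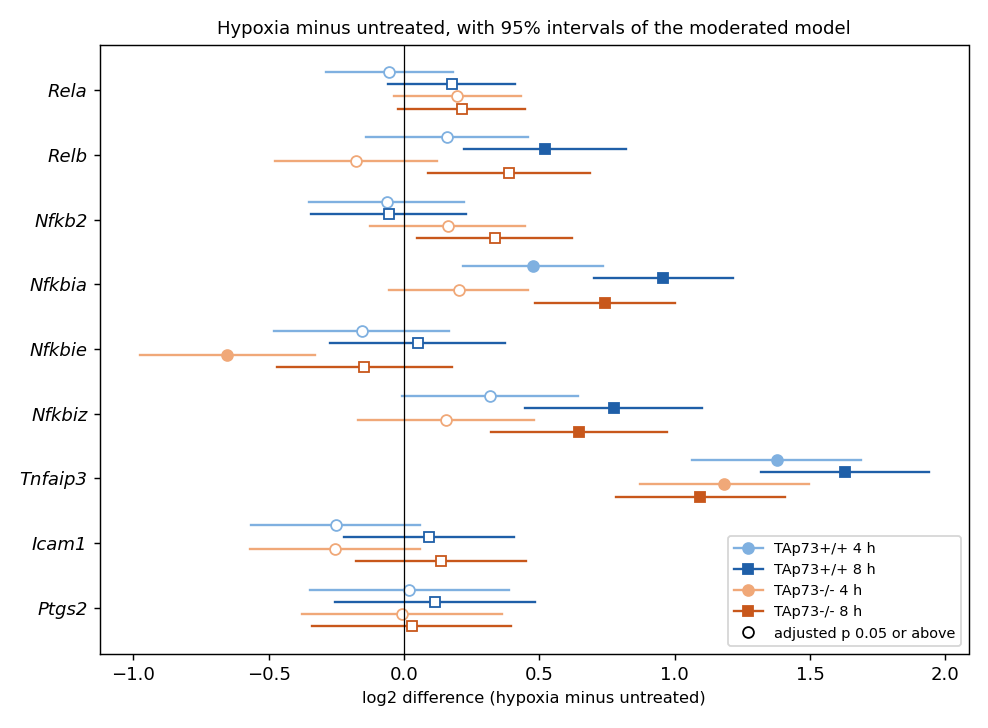
Log2 difference between 1% oxygen and untreated cells for each member, by genotype and time (point, with the 95% interval of the limma model; filled where the adjusted p was below 0.05). Tnfaip3 lies between 1.09 and 1.63 in all 4 comparisons, while Nfkbia, Nfkbiz and Relb lie further right at 8 h than at 4 h in both genotypes.

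The 8 h arrays were also compared directly with the 4 h arrays. Nfkbia rose further on its brighter probe, by 0.48 ± 0.12 in TAp73+/+ and by 0.54 ± 0.12 in TAp73-/- cells (limma, adjusted p = 0.0225 and 0.0192). Its dimmer probe was not called, at 0.64 and 0.23, each ± 0.20, in the fit of every probe (adjusted p = 0.0526 and 0.486), and with the mean of both probes the TAp73-/- call was lost (0.38, 0.0691). For Tnfaip3 the difference between 8 and 4 h was 0.25 ± 0.14 in TAp73+/+ (95% interval -0.06 to 0.56, adjusted p = 0.26) and -0.09 ± 0.14 in TAp73-/- cells (-0.40 to 0.22, 0.71). Relb rose from 4 to 8 h by 0.57 ± 0.14 in TAp73-/- cells (0.0263), and the TAp73+/+ difference was 0.36 ± 0.14 (0.0995). Nfkbiz was higher at 8 h by 0.46 and 0.49, each ± 0.15, in TAp73+/+ and TAp73-/- cells, short of the threshold (adjusted p = 0.0637 and 0.0579). In all, 1 of 9 members was called in TAp73+/+ and 2 in TAp73-/- cells, against 13.8% and 10.6% of all genes in either direction. These calls for Nfkbia were lost without any 1 of the TAp73+/+ 4 h or 8 h arrays (0.43 to 0.53, adjusted p 0.0932 to 0.13) and without TAp73-/- 4 h array 2 or either TAp73-/- 8 h array (0.39, 0.47 and 0.61, adjusted p = 0.105, 0.102 and 0.0755). The Relb call was lost without those same 3 TAp73-/- arrays (0.44, 0.42 and 0.72, adjusted p = 0.154, 0.146 and 0.0626), and all 3 calls were lost with the probe score as covariate (adjusted p = 0.294 and 0.103 for Nfkbia, 0.177 for Relb).

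Between the genotypes, Ptgs2 differed most among the members. Its brighter probe read 4.89 and 4.61, 4.71 and 4.83, and 4.99 and 4.73 on TAp73+/+ arrays at 0, 4 and 8 h, and was not detected on any of these 6. It read 6.73 and 6.60, 6.49 and 6.83, and 6.49 and 6.89 on TAp73-/- arrays and was detected on all 6. The 2 sets of arrays did not overlap. Because the TAp73+/+ signal was not above background, the difference is a lower bound, measured against the lowest signal of detected probes on those arrays. Ptgs2 was at least 3.03-fold higher in untreated TAp73-/- cells, at least 3.01-fold at 4 h and at least 3.12-fold at 8 h (limma, adjusted p = 1.00e-05, 1.22e-05 and 1.45e-05). The probe passed the filter on detection only through the TAp73-/- groups, so it had to differ, and these p-values are no independent support. All 3 calls held with the probe score as covariate. Over all 21 alternatives the measured differences were 0.93 to 2.60 untreated, 0.91 to 2.20 at 4 h and 0.89 to 2.29 at 8 h. The same selection lies behind these values, so they are no independent support either. The dimmer Ptgs2 probe was not detected on any array of either genotype, with signals of 4.33 to 4.60, so the difference rests on 1 probe.

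Ptges, the prostaglandin E synthase that works on the product of Ptgs2, had the same distribution over the groups. It was not detected in TAp73+/+ cells, with means of 4.81, 4.86 and 4.82, and read 7.88, 7.97 and 8.09 in TAp73-/- cells at 0, 4 and 8 h. Ptges, too, passed the filter only through the TAp73-/- groups, so its p-values are no independent support. It was at least 7.01-, 7.48- and 8.22-fold higher in TAp73-/- cells (limma, adjusted p = 9.00e-09, 9.02e-09 and 5.75e-09). Of the 4 prostaglandin synthesis genes tested beside Ptgs2, untreated TAp73-/- cells were higher for Ptges and Ptges3 (0.50 ± 0.14, adjusted p = 0.0153) and lower for Ptgis, the prostacyclin synthase (-0.47 ± 0.10, 0.00365), and the fourth was not called.

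Nfkb2 was higher in TAp73-/- cells at every time. Its TAp73+/+ arrays read 7.29 and 7.22 untreated, 7.29 and 7.09 after 4 h, then 7.11 and 7.29 after 8 h. Its TAp73-/- arrays read 7.89 and 7.55 untreated, 7.88 and 7.89 after 4 h, then 8.14 and 7.97 after 8 h, so the lowest TAp73-/- array lay above the highest TAp73+/+ array. The difference was 0.46 ± 0.13 untreated, 0.69 ± 0.13 at 4 h and 0.86 ± 0.13 at 8 h (limma, adjusted p = 0.0165, 0.00231 and 0.000584). The untreated call was lost without TAp73+/+ untreated array 2 (0.43, adjusted p = 0.0663) and TAp73-/- untreated array 1 (0.30, 0.146). With the probe score as covariate the 3 differences were 0.67, 0.78 and 1.00 and none was called (adjusted p = 0.517, 0.0525 and 0.104).

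Nfkbia was also higher in TAp73-/- cells, by 0.64 ± 0.12 untreated, 0.37 ± 0.12 at 4 h and 0.43 ± 0.12 at 8 h on the brighter probe (limma, adjusted p = 0.00166, 0.0301 and 0.0158). The dimmer probe gave the same direction, by 0.91, 1.21 and 0.80, each ± 0.20, in the fit of every probe (adjusted p = 0.00435, 0.00138 and 0.0108). The arrays of the genotypes did not overlap on either probe at any of the 3 times. The brighter probe's call at 4 h was lost without TAp73+/+ 4 h array 1 or 2 or TAp73-/- 4 h array 1 (0.34, 0.40 and 0.22, adjusted p = 0.144, 0.0884 and 0.172), and that at 8 h without TAp73+/+ 8 h array 2 or TAp73-/- 8 h array 1 (0.38 and 0.36, adjusted p = 0.101 and 0.108). With only the groups compared in the model, the brighter probe's 4 h call was also lost (0.37, limma, adjusted p = 0.0806). With the probe score as covariate the 3 differences were 0.14, 0.14 and 0.09 and none was called (adjusted p = 0.894, 0.654 and 0.887).

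Tnfaip3 was higher in TAp73-/- cells by 0.78 ± 0.14 untreated and 0.58 ± 0.14 at 4 h (limma, adjusted p = 0.00166 and 0.00878). At 8 h the difference was 0.24 ± 0.14 (95% interval -0.07 to 0.55, adjusted p = 0.2), although the TAp73-/- arrays (7.35, 7.43) still lay above the TAp73+/+ arrays (7.25, 7.04). The 4 h call was lost without TAp73+/+ 4 h array 1 (0.54, adjusted p = 0.0629) or TAp73-/- 4 h array 2 (0.39, 0.0684), and with the probe score as covariate the first 2 differences were 0.31 and 0.37 (0.809 and 0.335).

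The other members were not called between genotypes. Icam1 differed by 0.30, 0.30 and 0.35 at 0, 4 and 8 h, each ± 0.14 (limma, adjusted p = 0.12, 0.124 and 0.0798). The untreated difference was 0.53 without untreated TAp73+/+ array 1 and 0.07 without array 2. The 4 and 8 h differences stayed the same without either of these arrays, and passed the threshold in both cases. Nfkbiz differed by -0.20, -0.37 and -0.33, each ± 0.15 (adjusted p = 0.3, 0.0736 and 0.101), and without TAp73-/- 4 h array 2 it was lower by -0.61 at 4 h (0.00911). Rela differed by -0.27, -0.02 and -0.24, each ± 0.11 (0.0659, 0.893 and 0.107). Relb differed by 0.20, -0.14 and 0.06, each ± 0.14, and Nfkbie by 0.16, -0.34 and -0.04, each ± 0.15, with adjusted p from 0.0933 to 0.859 for these 2 genes.

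**Figure D4:**
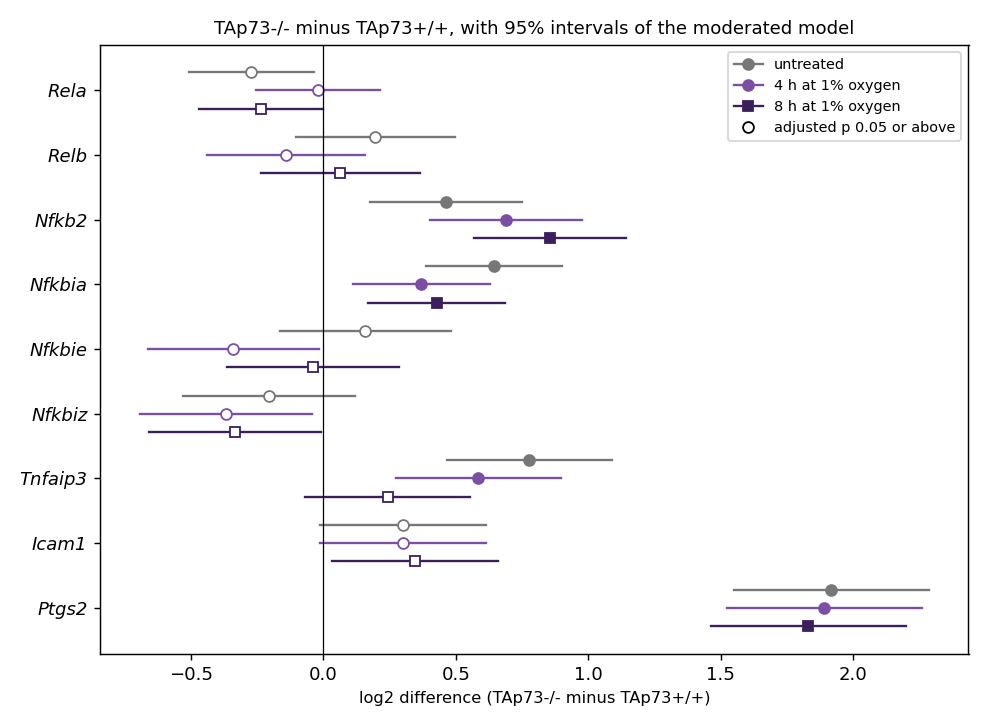
Log2 difference between TAp73-/- and TAp73+/+ cells for each member, untreated and after 4 and 8 h at 1% oxygen (point, with the 95% interval of the limma model; filled where the adjusted p was below 0.05). Ptgs2 lies farthest right at each time, measured against TAp73+/+ signals that were not above background, and Nfkb2 goes from 0.46 to 0.86 while Tnfaip3 goes from 0.78 to 0.24.

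Members higher in TAp73-/- cells numbered 4 of 9 untreated, 4 at 4 h (in both cases Nfkbia, Tnfaip3, Nfkb2 and Ptgs2) and 3 at 8 h (Nfkbia, Nfkb2 and Ptgs2), and none was lower. Without Ptgs2, which passed the filter only where it was high, these counts hold 3, 3 and 2 genes. Without background correction and on the authors' processed values, Rela was called lower in the untreated comparison (-0.27 and -0.26, limma, adjusted p = 0.0403 and 0.0339) and Nfkbiz lower at 4 h (-0.32 and -0.31, 0.0481 and 0.0469). Over all genes, 18.0% were called higher and 20.4% lower in untreated TAp73-/- cells, 18.5% higher and 18.0% lower at 4 h, and 18.2% higher and 18.2% lower at 8 h. The median difference of the members was 0.30, 0.30 and 0.24, against -0.03, -0.03 and -0.01 over all genes. The summed signal of the 8 macrophage and leukocyte markers was 235 to 276 on TAp73+/+ and 272 to 346 on TAp73-/- arrays, and none of the 3 tested was called. In untreated TAp73-/- cells 4 of 5 epithelial markers tested were higher, with a median of 0.63, and of 4 fibroblast markers 3 were higher and 1 lower, with a median of 1.07. Their part was not tested.

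The responses of the genotypes to hypoxia were compared directly as the difference between the TAp73-/- and the TAp73+/+ response. No member was called at 4 h or at 8 h by limma, against 0.304% and 0.478% of all genes. At an unadjusted p below 0.05, Nfkbie at 4 h (-0.50 ± 0.21, 95% interval -0.96 to -0.04, adjusted p = 0.256) and Tnfaip3 at 8 h (-0.53 ± 0.20, -0.97 to -0.09, adjusted p = 0.25) passed in limma. The intervals of Nfkbia were -0.64 to 0.09 at 4 h and -0.58 to 0.15 at 8 h, and those of Nfkb2 were -0.18 to 0.63 and -0.01 to 0.80. For Ptgs2 they were -0.55 to 0.49 and -0.61 to 0.43, with 1 side at background. No member passed the adjusted threshold under any of the alternatives. With 2 arrays a group, differences in response of these sizes were not resolved either way.

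For the 3 members whose group means spanned more than 1 on the log2 scale, the genes with the most similar course over the 12 arrays were looked up. The arrays share genotype, time and processing, so these correlations describe the pattern only. Tnfaip3 (span 1.96) was followed most closely by Adm (Pearson r = 0.990), Cited2 (0.986) and Slc2a1 (0.981). Adm encodes adrenomedullin and Slc2a1 a glucose transporter, both known to rise in hypoxia, and Cited2 a transcriptional cofactor that limits the activity of hypoxia-inducible factors. Adm went from 5.15 to 7.89 and 8.42 in TAp73+/+ cells and from 6.50 to 9.37 and 9.29 in TAp73-/- cells at 4 and 8 h. Nfkbia (span 1.39) was most like Aldoc, a glycolytic aldolase (0.970), Ndufv3, a subunit of respiratory complex I (0.964), and Smtn, a cytoskeletal protein of smooth muscle (0.961). Aldoc went from 7.27 to 7.85 and 8.99 in TAp73+/+ and from 8.43 to 9.02 and 9.82 in TAp73-/- cells. Ptgs2 (span 1.95) was most like Adamts12, a secreted metalloprotease (0.994), Ptges (0.990) and Acbd4 (0.989). The Ptgs2 correlations set the genotypes against each other, since Ptgs2 was at background on all 6 TAp73+/+ arrays.

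The rest of the pathway was taken from 7 lists that hold 93 genes, of which 69 were tested. In TAp73+/+ cells 11 of the 69 were higher and 9 lower at 4 h, and 18 higher and 6 lower at 8 h. That is 29.0% and 34.8% in either direction, while over all genes 12% were higher and 16% lower at 4 h, and 11.6% higher and 12.3% lower at 8 h. In TAp73-/- cells 3 were higher and 4 lower at 4 h, and 8 higher and 9 lower at 8 h, or 10.1% and 24.6%. The shares of all genes there were 3.13% and 3.84%, then 10.6% and 10.2%. Between 4 and 8 h, 12 rose and 2 fell in TAp73+/+ cells (20.3%), against 13.8% of all genes. In TAp73-/- cells 7 rose and 3 fell (14.5%), against 10.6% of all genes. Csf2 was detected only in TAp73+/+ cells at 8 h, passed the filter only there, and could count there only as a rise. The TAp73+/+ counts at 8 h and from 4 to 8 h hold it and are no independent support.

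Among the 19 target genes tested beside the members, 6 were higher and 4 lower at 4 h in TAp73+/+ cells. At 8 h 10 were higher and 2 lower, with a median of 0.69 against -0.02 over all genes. The shares of all genes were 12% higher and 16% lower at 4 h, and 11.6% and 12.3% at 8 h. The 10 include Csf2, which was detected only in TAp73+/+ cells at 8 h and passed the filter only there. It could count only as a rise, so this count and median are no independent support. In TAp73-/- cells 2 were higher and 2 lower at 4 h, against 3.13% and 3.84% of all genes. At 8 h 5 were higher and 1 lower there, against 10.6% and 10.2%, with a median of 0.20 against 0.00 over all genes. Ier3, an early response gene that affects cell survival, read 12.32 ± 0.09, 14.44 ± 0.03 and 14.82 ± 0.08 in TAp73+/+ cells (mean ± SD, n = 2) and 13.17 ± 0.09, 14.74 ± 0.06 and 14.91 ± 0.12 in TAp73-/- cells. It rose by 2.11 and 2.50 in TAp73+/+ and by 1.57 and 1.74 in TAp73-/- cells, each ± 0.10 (limma, adjusted p = 8.26e-07, 1.43e-07, 9.29e-06 and 3.08e-06). Cxcl2, a neutrophil chemokine, rose at 8 h by 1.67 ± 0.10 and 1.48 ± 0.10 (1.37e-06 and 4.66e-06), and its second probe had the same sign. Between 4 and 8 h in TAp73+/+ cells the largest rises were those of Plau, the urokinase plasminogen activator (1.67 ± 0.24, 0.00271), and Ccl2, a monocyte chemokine (1.38 ± 0.17, 0.00107). Vcam1, an adhesion molecule, fell at 4 h by 0.81 ± 0.15 in TAp73-/- cells (0.0104), and in TAp73+/+ cells, where it was then not detected, it was at least 1.67-fold lower than untreated (0.00105).

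Upstream of NF-kappaB, 4 of 18 receptors and adaptors were higher and 2 lower at 4 h in TAp73+/+ cells. At 8 h 4 were higher and 1 lower. Over all genes in TAp73+/+ cells, 12% were higher and 16% lower at 4 h, and 11.6% and 12.3% at 8 h. Tnfrsf1a, the main receptor for tumour necrosis factor, rose by 1.01 ± 0.15 at 4 h and 0.71 ± 0.15 at 8 h (limma, adjusted p = 0.00103 and 0.00712), with the same sign on all 3 probes. Tradd, the adaptor it recruits, was higher by 1.92 ± 0.26 at 4 h (0.000623), but its other probe had the opposite sign. Myd88, the adaptor of Toll-like and interleukin-1 receptors, fell in all 4 comparisons, by 0.45 and 0.41 in TAp73+/+ and by 0.49 and 0.63 in TAp73-/- cells, each ± 0.13 (adjusted p = 0.0233, 0.0414, 0.0445 and 0.00657). In TAp73-/- cells 1 of the 18 was higher and 1 lower at 4 h, and 2 were higher and 4 lower at 8 h. The shares of all genes were 3.13% higher and 3.84% lower at 4 h, and 10.6% and 10.2% at 8 h. With so few genes in a list, these counts describe the lists only. Of 10 kinases and kinase partners, Map3k8 rose at 8 h by 0.56 ± 0.11 in TAp73+/+ and 0.37 ± 0.11 in TAp73-/- cells (limma, adjusted p = 0.00583 and 0.0437). It was the 1 call at 8 h in each. Of 4 other subunits and IkB proteins, Nfkbib, the gene of IkBbeta, fell at 8 h by 0.40 ± 0.12 and 0.39 ± 0.12 (0.0304 and 0.0375). Of 12 other negative regulators, 3 were higher and 1 lower at 8 h in TAp73+/+ cells, among them Usp18, an interferon-induced protease (-1.20 ± 0.15, 0.000325).

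Between genotypes, 28 of the 69 were higher and 12 lower in untreated TAp73-/- cells. At 4 h 23 were higher and 8 lower, while 8 h gave 18 higher and 11 lower. Over all genes 18.0% were higher and 20.4% lower untreated, 18.5% and 18.0% at 4 h, and 18.2% each way at 8 h. Traf1, Traf5, Nlrc5 and Ptges were detected on no TAp73+/+ array and passed the filter only through TAp73-/- groups. They could count only as higher, while Csf2, which passed only through TAp73+/+ cells at 8 h, could count there only as lower. Tnfsf13b was detected on no TAp73-/- array and passed only through TAp73+/+ groups. It too could count only as lower, and did so untreated and at 8 h. The counts that hold these genes, and their p-values, are no independent support. Of 10 kinases and kinase partners, 2 were higher and 2 lower untreated, 3 higher and 1 lower at 4 h, and 3 higher and none lower at 8 h. Map3k14, the kinase NIK that sets off p100 processing, was higher in TAp73-/- cells by 0.68, 0.57 and 0.46, each ± 0.16 (limma, adjusted p = 0.00625, 0.0165 and 0.041). Of 18 receptors and adaptors, 9 were higher and 2 lower untreated, and 6 were higher and 3 lower at each later time. Traf1 and Traf5 are among those higher at each time. Traf2, an adaptor that holds NIK down, was lower by -0.73, -0.67 and -0.81, each ± 0.13 (0.00148, 0.0026 and 0.000802). Traf1, an adaptor known as an NF-kappaB target, was not detected in TAp73+/+ cells, passed the filter only through TAp73-/- groups, and was at least 1.87-, 1.49- and 2.41-fold higher in TAp73-/- cells (1.91e-05, 2.68e-05 and 1.73e-06). Of the IkB family, Bcl3, a partner of p50 and p52 dimers, was higher by 0.84 ± 0.20 untreated and 0.72 ± 0.20 at 4 h (0.00651 and 0.0158), and Nfkbib was lower by -0.44 ± 0.12 untreated and -0.43 ± 0.12 at 8 h (0.0119 and 0.0147). Of the negative regulators, Cyld, a deubiquitinase, was lower by -0.41, -0.60 and -0.42, each ± 0.09 (0.00613, 0.000711 and 0.00541).

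Cxcl10, Usp18 and Ccl5, all also known to be induced by interferons, had the largest genotype differences on the lists. Cxcl10, a T cell chemokine, read 5.29, 6.04 and 6.71 in TAp73+/+ and 11.86, 11.06 and 11.17 in TAp73-/- cells at 0, 4 and 8 h, a difference of 6.57, 5.01 and 4.46, each ± 0.13 (limma, adjusted p = 8.45e-11, 7.69e-10 and 1.71e-09). Ccl5, another chemokine, was higher by 3.71, 3.70 and 3.87, each ± 0.11 (1.40e-09, 1.68e-09 and 1.06e-09). Usp18 was higher by 4.79, 5.13 and 5.78, each ± 0.15 (1.87e-09, 1.16e-09 and 5.00e-10). Nlrc5, a regulator of class I antigen presentation genes, also passed the filter only through TAp73-/- groups and was at least 5.81-, 3.72- and 3.71-fold higher (1.12e-07, 3.20e-07 and 5.50e-07). Among the 19 other targets, 10 were higher and 3 lower in the untreated comparison, against 8 higher and 2 lower at 4 h. At 8 h 5 were higher and 4 lower. The shares of all genes were 18.0% higher and 20.4% lower untreated, 18.5% and 18.0% at 4 h, and 18.2% each way at 8 h. Cflar, an inhibitor of caspase-8 activation, was lower by -1.07, -0.37 and -0.66, each ± 0.09 (7.59e-06, 0.00878 and 0.000267), and Gadd45b, a stress response gene, by -0.60, -0.82 and -0.83, each ± 0.11 (0.00206, 0.00032 and 0.000264), with its other probe of opposite sign at 4 and 8 h.

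**Figure D5:**
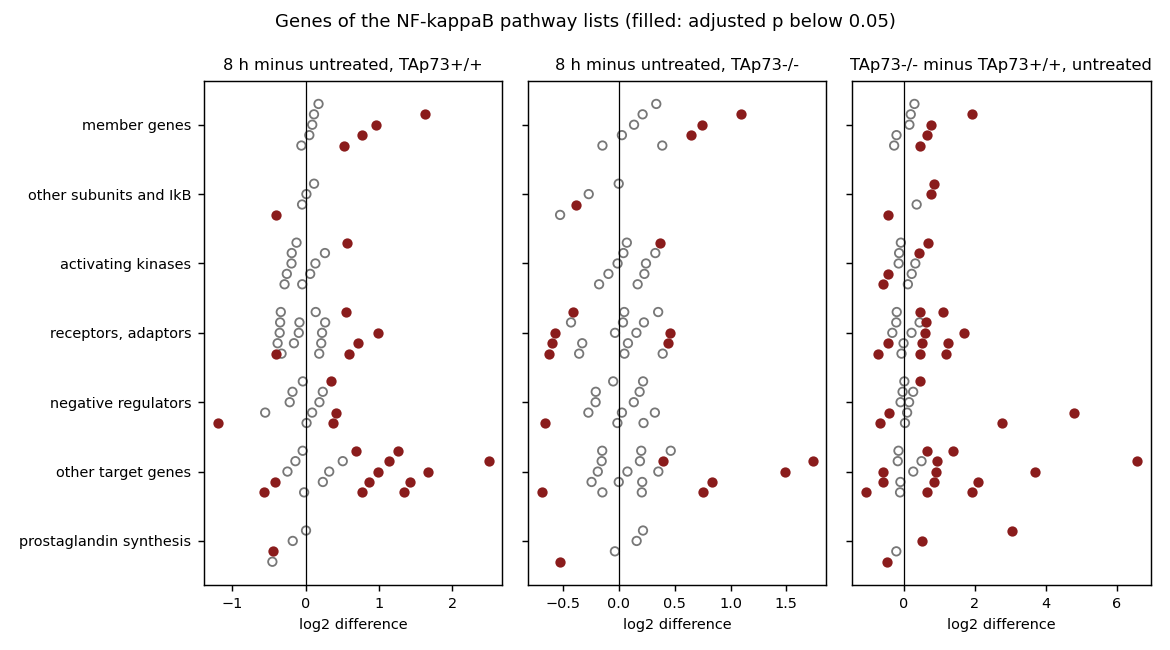
Log2 differences of the members and of 6 pathway lists (1 point per gene, filled where the limma adjusted p was below 0.05) for 8 h of hypoxia in each genotype and for untreated TAp73-/- against TAp73+/+ cells, with a separate horizontal scale per panel and the 2 tested ligands left out. The 4 filled member points at 8 h in TAp73+/+ cells lie between 0.52 and 1.63, and Cxcl10 stands at 6.57 in the panel of genotypes, where genes not detected in TAp73+/+ cells are drawn at their measured difference.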

How the data were processed

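RNA was hybridised to 12 Illumina mouse bead arrays, 2 in each of 6 groups, per the labels. The deposited table gives, for every probe on every array, its intensity together with a detection p-value, per the file headers. The deposited series matrix holds processed intensity signals that the submitters' processing notes link to Partek, with no version. They have the rank order of the signals and a median of 71.5 on every array, and served as an alternative.

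Signals were background-corrected by normexp from the detection p-values, given an offset of 16, quantile-normalised and log2-transformed with neqc (limma 3.58.1, R 4.3.3). To be kept, a probe needed a detection p-value below 0.05 on each array of some group (21223 did). The platform annotation gives a lone gene symbol for 34885 probes of the whole array and several for 18, and 17891 of the kept probes have 1 symbol. Symbols were updated through the Entrez identifier. Each gene was represented by its brightest probe, which gave 10873 genes. All arrays entered a limma model of group means, and 11 contrasts were tested with Benjamini-Hochberg adjustment (6 residual and 4.79 prior degrees of freedom).

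The members and the lists were chosen with earlier results of these data known. All members are named. The rule also took, of each pathway list and contrast, the called genes that rose most and fell most (up to 2 each), of which the text names some, with Vegfa, Adm and Trp73 as checks, the markers, and the 3 genes most correlated with each member of span above 1. A fold against a group where a gene was not detected is given as at least N-fold, against the lowest detected signal of each array or the gene's own, whichever was higher. On simulated arrays for the TAp73+/+ 4 h contrast with 10873 genes, the model recovered 23 of 50 genes changed by 0.5, 43 of 50 by 1, 50 of 50 by 1.5 and 49 of 50 by 2 on the log2 scale, with 8 false calls. Only those genes were changed in the simulation, with independent noise, while 12.0% of genes were called higher and 16.0% lower in the data. Recovery in the data may therefore differ. The number of arrays limits the precision. Same-numbered arrays of 15 pairs of groups had correlated deviations of -0.25 to 0.12, above 0.1 in 2, so the numbers were not taken as pairs. The labels name no slide or date, and no slide block was run. Alternatives covered the background correction, the authors' processed values, the filter, the choice of probe, the replicate block, a probe disagreement score as covariate (first principal component of 11589 probes, 50.2% of their variance), the groups in the model and each array left out in turn.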

Additional observations from a re-analysis of the deposited data

Results flagged for a closer look

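Among the members and pathway genes, Cxcl10 was the gene whose response to hypoxia differed between the genotypes by the test of the difference itself. The TAp73-/- minus TAp73+/+ difference in response was -1.56 ± 0.19 at 4 h and -2.11 ± 0.19 at 8 h (limma, adjusted p = 0.0128 and 0.00276), and the other probe of Cxcl10 had the same sign. The gene's TAp73+/+ level went from 5.29 to 6.04 and 6.71, while its TAp73-/- level went from 11.86 to 11.06 and 11.17 at 4 and 8 h. The 2 tests share the untreated arrays. The cause was not tested.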

How the results depend on the processing

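Counts of members called moved with several choices. Without background correction 2 members were called for 8 against 4 h in TAp73+/+ cells in place of 1. That setting and the authors' processed values both added Relb at 8 h in TAp73-/- cells (0.32 and 0.31, limma, adjusted p = 0.0442 and 0.0426), Nfkbiz for 8 against 4 h in TAp73+/+ (0.41 and 0.40, 0.0297 and 0.0274) and TAp73-/- (0.43 and 0.41, 0.0296 and 0.0283), Icam1 between genotypes at 8 h (0.33 each, 0.0442 and 0.0405), and, as lower calls between genotypes, Rela untreated and Nfkbiz at 4 h. On the authors' processed values 1 was called in place of 2 at 4 h in TAp73-/- cells, and 2 in place of 1 for 8 against 4 h in TAp73+/+. A detection p-value below 0.01 gave 4 in place of 2 for 8 against 4 h in TAp73-/-. The mean of a gene's probes gave 1 in place of 2 at 4 h in TAp73+/+. With only the groups compared, 3 in place of 1 and 0 in place of 2 were called for 8 against 4 h in TAp73+/+ and TAp73-/-. That setting also gave 5 in place of 3 between genotypes at 8 h, and ended the Nfkbia call between genotypes at 4 h (0.37, limma, adjusted p = 0.0806). The probe score as covariate gave 0 in place of 2 at 4 h and 2 in place of 4 at 8 h in TAp73+/+, 0 in place of 2 at 4 h in TAp73-/-, 0 for 8 against 4 h in each genotype, and 1 in place of 4, 4 and 3 between genotypes at 0, 4 and 8 h. It also turned Nfkbia at 4 h in TAp73+/+ to -0.0017 (limma, adjusted p = 0.999), the 1 value of a called gene that changed direction under an alternative. Of the members' other values over all contrasts and alternatives, 1980 stayed on their side of the threshold, 45 gained and 53 lost a call. Over all genes that covariate left 16 calls in place of 3043 at 4 h in TAp73+/+. The cause was not tested.

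With each array left out, members called ranged in TAp73+/+ from 1 to 3 after 4 h, with 3 to 4 after 8 h, and in TAp73-/- from 1 to 2 and from 2 to 3. For 8 against 4 h they were 0 to 2 in TAp73+/+ and 0 to 4 in TAp73-/-, and they were 3 to 5, 2 to 5 and 2 to 4 between genotypes at 0, 4 and 8 h. They stayed at 0 for both differences in response. The replicate block ended no member's call and added Nfkbie for 8 against 4 h in TAp73-/- (0.51, adjusted p = 0.0235) and between genotypes at 4 h (-0.34, 0.0314). An array left out leaves 1 array in its group, which is assumed to vary like the others.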
